A study of Mus musculus with 12 samples.

Results

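The interaction of genotype and muscle asks, gene by gene, whether the difference between mice without dysferlin and control mice is the same in a proximal and in a distal muscle. It was taken as (Dysf TA minus Control TA) minus (Dysf QF minus Control QF) on log2 values, which is equally the TA minus QF difference in Dysf mice minus that in Control mice. All 12 arrays of the series entered it, 3 in each of 4 groups assigned by the sample titles, and 10331 of 12422 probe sets that were not array controls were measured well enough to be tested. A positive value means that the Dysf level, relative to Control, was higher in TA than in QF, and a negative value that it was lower.

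The samples were total RNA from whole muscle of mice aged 3 weeks. Dysf mice were of the line C57BL/10-SJL.Dysf, labelled Dysf -/-, in which the dysferlin allele of the SJL strain was bred onto a C57BL/10 background. Control mice were C57BL/10. From knowledge of the study QF is the quadriceps femoris, a proximal muscle of the thigh, and TA the tibialis anterior, a distal muscle of the leg. The labels give neither sex nor the number of mice behind each array, and they do not say whether replicates are different animals. The p-values therefore measure only how far these arrays spread, part of which may be technical.

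Dysferlin sits in the sarcolemma, where it helps to reseal the fibre after injury, and its loss causes muscular dystrophies in which proximal or distal muscles can be affected first. The Z-disc, where thin filaments of neighbouring sarcomeres are anchored, also holds proteins that shuttle to the nucleus and respond to stretch, and small heat shock proteins that protect the filaments. Fasting and glucocorticoid hormones raise another set of muscle genes, which promote autophagy and protein breakdown.

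The labels were checked first. Hoxa11, a limb patterning gene, was at the measurement floor (log2 4.53) on all 6 QF arrays and between 6.18 and 6.57 on the 6 TA arrays, and the fast muscle genes Acta1, Tnnt3 and Mylpf were high on all 12. The Dysf transcript itself is named by 0 of the kept probe sets and could not serve as a check of genotype. The QF arrays numbered 2 of both genotypes stood apart, with a median correlation to the other arrays of 0.866 and 0.876 against 0.926 to 0.959 for the other 10, and deposited medians of 106.1 and 107.1 against 72.8 to 84.3. Results are therefore also given without this pair of arrays where that changes a call.

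Few genes had a genotype difference that passed the test for depending on the muscle. The Z-disc genes Csrp3 and Ankrd2 and the small heat shock gene Cryab were highest in Control TA, the neutrophil genes S100a9 and S100a8 were highest in Dysf TA with Control QF next, and the tubulin gene Tubb6 was lowest in Control QF. At an adjusted p under 0.05 the interaction was called for 7 of 10331 probe sets (0.0678%), 4 negative (0.0387%) and 3 positive (0.029%). The negative ones were Csrp3, Ankrd2, Tubb6 and Cryab, and the positive ones S100a9, S100a8 and a probe set, 97519_at, whose gene is not named in the annotation used here. At an unadjusted p under 0.05 there were 315 probe sets (3.05%), and with the replicate block described next 997 (9.65%), on either side of the 5% that this level sets. By comparison the simple differences were called for 47 probe sets between genotypes in QF (0.455%), 42 between genotypes in TA (0.407%), 76 between muscles in Control mice (0.736%) and 31 between muscles in Dysf mice (0.3%).

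Same-numbered arrays of the 2 genotypes within a muscle deviated together, plainly in QF and weakly in TA. With the replicate number as a block within each muscle 32 probe sets were called (0.31%), 15 negative (0.145%) and 17 positive (0.165%). They hold all 7 of the calls made without the block. The block leaves each estimate as it was and changes its error alone. The other 25 are given as values without the block, and those of them that the rule for named genes does not hold were singled out after their values were seen. With the block and without the QF arrays numbered 2 the count was 12, in which 6 of the 25 remained: Cebpd, Col3a1, Ddit4, Map1lc3b, Mybph and the unnamed probe set 100336_s_at.

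**Figure D1:**
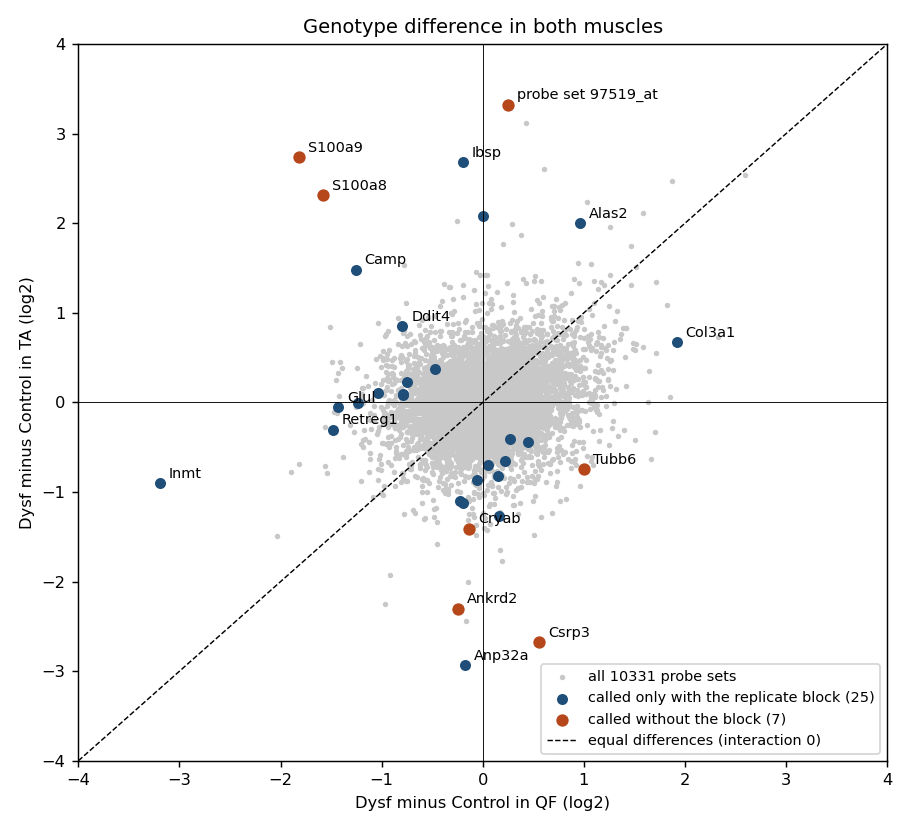
Dysf minus Control in QF (horizontal axis, log2) against the same difference in TA (vertical axis, log2) for all 10331 tested probe sets, each a grey point; orange points are the 7 probe sets called for the interaction and blue points the 25 called with the replicate block alone. The dashed line marks equal differences, from which S100a9 and S100a8 lie upward and Csrp3, Ankrd2 and Anp32a downward.

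Among the calls made without the block the largest negative interactions were in a pair of genes of the Z-disc. Csrp3 encodes muscle LIM protein, which links the Z-disc to gene regulation, and Ankrd2 encodes an ankyrin repeat protein that binds titin and responds to stretch. In Control mice both genes were far higher in TA than in QF, and in Dysf mice that difference was much smaller.

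Csrp3 was 12.80, 12.63 and 12.96 (log2 intensity) on the Control TA arrays, 10.07, 10.10 and 10.19 in Dysf TA, 8.63, 7.84 and 8.87 in Control QF and 9.22, 8.55 and 9.24 in Dysf QF. All 3 Control TA arrays lay above the other 9. The genotype difference was -2.68 ± 0.24 (SE, 3 arrays a group) in TA and 0.56 ± 0.24 in QF, an interaction of -3.23 ± 0.34 (limma, adjusted p = 0.00142). Seen across muscles, TA exceeded QF by 4.35 in Control mice, a 20.4-fold difference, and by 1.11 (2.16-fold, adjusted p = 0.123) in Dysf mice.

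Ankrd2 was 12.39, 12.14 and 12.30 in Control TA, 10.04, 9.74 and 10.14 in Dysf TA, 9.64, 9.89 and 9.35 in Control QF and 9.56, 9.35 and 9.23 in Dysf QF. Control TA again stood above the 9 other arrays, which spanned less than a log2 unit. Ankrd2 fell by 2.30 ± 0.16 in Dysf TA and differed by -0.25 ± 0.16 in QF, an interaction of -2.05 ± 0.23 (adjusted p = 0.00156). The TA to QF ratio was 6.27-fold in Control mice and 1.51-fold in Dysf mice.

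Cryab encodes alpha-B crystallin, a small heat shock protein that binds desmin and titin. It was 11.49, 11.08 and 11.33 in Control TA, 10.06, 9.98 and 9.63 in Dysf TA, 9.92, 9.98 and 9.90 in Control QF and 9.83, 9.75 and 9.81 in Dysf QF. Only the Control TA arrays left the narrow range of the rest. On probe set 162308_f_at, whose name marks it as one shared within a sequence family, the interaction was -1.27 ± 0.20 (adjusted p = 0.0339). It was called under 7 of 24 alternative settings and not without the QF arrays numbered 2 (adjusted p = 0.152), and the gene's other probe set, which read near the floor, gave 0.32 ± 0.51.

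**Figure D2:**
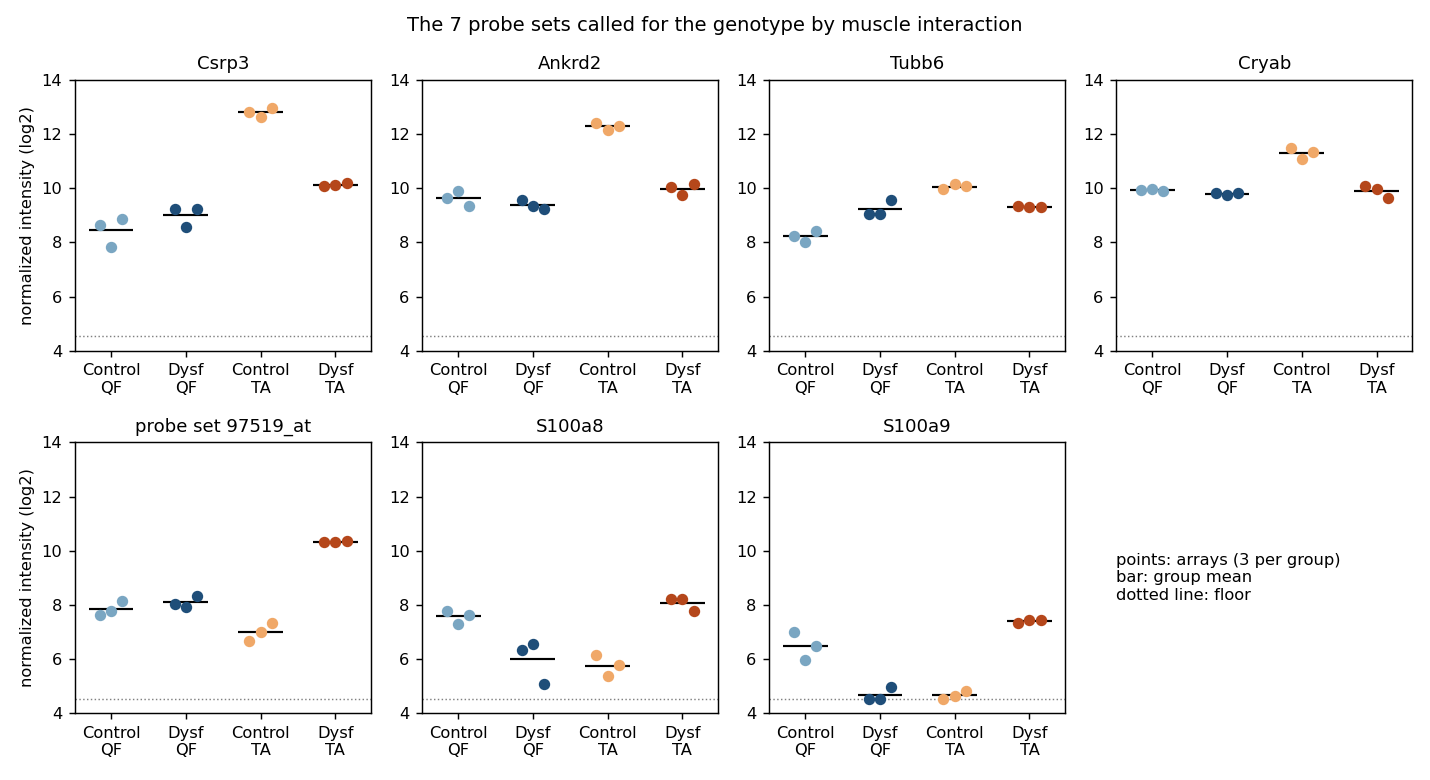
Normalized log2 intensity of the 7 called probe sets (vertical axis) on each of the 12 arrays, by group; points are arrays, bars the mean of 3 and the dotted line the floor of 4.53. Csrp3, Ankrd2 and Cryab are high in Control TA, Tubb6 is low in Control QF, and S100a8, S100a9 and probe set 97519_at are highest in Dysf TA.

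In the next genes Control TA was also the highest group, while the order of the other groups varied. Fhl1, a LIM protein of the sarcomere, gave 13.60, 13.32 and 13.49 in Control TA, 12.73, 12.80 and 12.92 in Dysf TA, 11.65, 11.67 and 11.90 in Control QF and 11.97, 11.90 and 12.02 in Dysf QF. Its interaction of -0.87 ± 0.16 had an adjusted p of 0.125 without and 0.0268 with the block, and its second probe set gave -0.73 ± 0.27. The small heat shock genes Hspb8 (-0.74 ± 0.18) and Hspb2, the genomic neighbour of Cryab (-0.81 ± 0.35), were also called with the block alone. Their block-adjusted p-values were 0.0255 and 0.036. Without the block, to which these errors belong, Hspb8 had an adjusted p of 0.383 and Hspb2 an unadjusted p of 0.038 (limma). In both genes Control TA lay above the other 9 arrays and Dysf TA had the lowest mean. A second probe set gave -0.49 for Hspb2. Ankrd1, the cardiac relative of Ankrd2, had -1.28 ± 0.49 and the actin-binding Xirp1 -0.72 ± 0.22, not called with or without the block (adjusted p = 0.241 and 0.141 with it).

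Across the Z-disc and stretch-response list, 18 genes were measured, of which 2 were called negative, 3 with the block and 0 positive either way. Over all 7310 genes measured 4 were called negative, and 14 with the block. At an unadjusted p under 0.05 by limma 5 of the list were negative and 0 positive, against 3.05% of all probe sets either way. Such list counts take genes with any probe set that passed, while the share is of single probe sets. The median interaction of the list was -0.25, against -0.01 over all 7310 genes measured, and 14 of 18 members were below 0. Its uncalled members ran from -1.28 (Ankrd1) to 0.32 (the alpha-actinin gene Actn3), and the titin cap gene Tcap gave -0.28. Of 23 heat shock and chaperone genes 1 was called negative and 3 with the block, with a median of -0.43 and 17 below 0. By limma 6 were negative and 1 positive at an unadjusted p under 0.05. The endoplasmic chaperone Hspa5 gave -0.79 ± 0.23 and the inducible Hspa1b -0.10. The member with the largest value, the co-chaperone gene Dnajb5, pointed the other way with 1.73 and was not called.

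The summed intensity of the 18 Z-disc genes, which is weighted to the brightest of them, was 59667 to 64134 on the Control TA arrays and 38457 to 46402 on the other 9. It includes the called genes Csrp3 and Ankrd2, so it is no separate support for a pattern across the list. For slow fibre contractile genes, 0 of 12 were called with or without the block (median -0.19), and for fast fibre contractile genes 0 of 13 (median 0.04). By limma 0 members of either fibre type list had an unadjusted p under 0.05, against 3.05% of all probe sets. Calls made up 0.0678% of all probe sets, and 0.31% with the block, so nothing is read from these counts. In whole muscle RNA, fewer cells of a type and less RNA per cell cannot be told apart.

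Promoters of the 4 named genes with the largest called interactions are shown because Csrp3 and Ankrd2 moved together, as did S100a9 and S100a8, which are neighbours on chromosome 3. Each run covers 250 bases before to 50 after the start listed first in RefSeq (GRCm38.p6), read 5′ to 3′ on the gene's strand: Csrp3 at chr7:48848002-48848301 (minus strand, 2 starts listed), Ankrd2 at chr19:42035777-42036076 (plus), S100a9 at chr3:90695672-90695971 (minus) and S100a8 at chr3:90668821-90669120 (plus). Capitals mark matches on either strand to a short set of motifs, overlapping matches being joined.
Csrp3: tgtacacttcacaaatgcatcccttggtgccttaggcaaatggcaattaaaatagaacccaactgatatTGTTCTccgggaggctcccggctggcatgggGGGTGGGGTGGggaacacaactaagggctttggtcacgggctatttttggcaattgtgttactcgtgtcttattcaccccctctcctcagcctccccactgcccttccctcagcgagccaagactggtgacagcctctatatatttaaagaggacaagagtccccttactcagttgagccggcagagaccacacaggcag
Ankrd2: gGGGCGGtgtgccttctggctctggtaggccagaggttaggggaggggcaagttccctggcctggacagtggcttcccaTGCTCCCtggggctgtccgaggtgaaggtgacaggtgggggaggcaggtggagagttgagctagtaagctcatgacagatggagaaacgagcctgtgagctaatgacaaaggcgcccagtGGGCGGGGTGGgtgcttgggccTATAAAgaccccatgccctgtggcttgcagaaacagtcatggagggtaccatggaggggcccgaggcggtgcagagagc
S100a9: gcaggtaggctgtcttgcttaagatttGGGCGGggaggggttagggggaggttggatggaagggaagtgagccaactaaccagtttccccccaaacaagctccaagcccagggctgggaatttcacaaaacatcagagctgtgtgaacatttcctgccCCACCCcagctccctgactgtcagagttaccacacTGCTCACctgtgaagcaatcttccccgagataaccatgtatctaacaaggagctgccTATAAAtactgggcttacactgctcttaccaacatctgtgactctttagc
S100a8: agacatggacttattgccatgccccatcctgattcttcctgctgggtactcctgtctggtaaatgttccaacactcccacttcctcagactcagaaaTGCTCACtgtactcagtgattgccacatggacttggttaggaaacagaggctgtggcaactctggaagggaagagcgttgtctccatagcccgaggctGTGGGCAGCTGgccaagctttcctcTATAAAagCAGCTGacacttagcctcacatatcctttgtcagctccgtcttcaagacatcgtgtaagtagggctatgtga
The letters of the TATA box (TATAAA) were found in 3 of these 4 promoters and in 13.6% of the 32851 promoters of the table. They began at -29 from the start in Ankrd2 and -30 in S100a8, but at position 1, the listed start itself, in S100a9. The CACCC box (CCACCC) was found in 3 of 4 against 31.5%, the GC box (GGGCGG) in 2 against 35.7%, and the metal response core (TGCNCNC) in 3 against 51%. The muscle E-box (CAGCTG) occurred in S100a8 alone among the 4 (16.3% of all) and the glucocorticoid receptor half-site (AGAACA) in Csrp3 alone (19%). The heat shock pair (GAANNTTC, 7.86%), the AP-1 site (TGANTCA, 7.81%), the MCAT element (CATTCC, 14.7%) and the CCAAT box (CCAAT, 37.4%) were in 0 of 4. A match describes these letters and is not a sign of binding.

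Tubb6, a beta-tubulin that is abundant in developing and regenerating muscle, had both control groups apart. Its Control TA arrays lay above all others, as in the genes above, and its Control QF arrays below all others. Control QF was the farther of these groups from the rest. Tubb6 was 8.22, 8.0 and 8.43 in Control QF and 9.04, 9.04 and 9.57 in Dysf QF. In TA it was 9.97, 10.14 and 10.06 in Control mice and 9.33, 9.29 and 9.31 in Dysf mice. The 2 muscles lay apart in Control mice and close together in Dysf mice. Tubb6 rose 2.0-fold in Dysf QF (adjusted p = 0.0208) and gave -0.75 ± 0.17 in TA (adjusted p = 0.121), an interaction of -1.75 ± 0.24 (adjusted p = 0.0119). The TA minus QF difference was 1.84 in Control mice and 0.09 in Dysf mice. The probe set's name marks it as one shared within a sequence family, so related tubulins could add to its signal.

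Other tubulins gave values in the same direction. Tubb3, a beta-tubulin best known from neurons, had -1.11 ± 0.23 (adjusted p = 0.247, and 0.0543 with the block), also on a family probe set, and Tubb5 -0.55 ± 0.17. Among the 32 measured genes of the tubulin, thymosin and actin remodelling list, 1 was called (Tubb6) with or without the block, and the median was -0.19. Over all probe sets 0.31% were called with the block and 0.0678% without it. By limma 7 of the list were negative and 0 positive at an unadjusted p under 0.05, against 3.05% of all probe sets.

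Some matrix genes also had their lowest values in Control QF. Col3a1, a fibrillar collagen chain, was 7.77, 7.51 and 8.27 in Control QF, 9.54, 9.62 and 10.14 in Dysf QF, 9.22, 9.28 and 9.11 in Control TA and 9.94, 9.89 and 9.80 in Dysf TA. It rose 3.77-fold in Dysf QF (adjusted p = 0.0019) and gave 1.59-fold in TA (0.426). The interaction was -1.24 ± 0.29 on probe set 102990_at (adjusted p = 0.349, and 0.00914 with the block), while the gene's other probe sets gave -0.61 and -0.35, the first of them with its lowest mean in Dysf TA. The collagen-associated Postn (-0.91 ± 0.29), the microfibril protein gene Mfap5 (-1.08 ± 0.38) and the Wnt-binding Sfrp4 (-1.60 ± 0.57) had the same group low and were not called. Over all probe sets 0.31% were called with the block and 3.05% had an unadjusted p under 0.05 by limma. Of 37 extracellular matrix genes 27 were below 0, the median was -0.31, 0 were called and 1 was called with the block. By limma 6 were negative and 2 positive at an unadjusted p under 0.05. Their summed intensity was 25920 to 28656 in Control QF, 32495 to 39727 in Control TA, 42014 to 48701 in Dysf QF and 42486 to 53160 in Dysf TA, so the muscles were apart in Control mice and overlapped in Dysf mice.

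Further genes were called with the block alone and negative. Cd68, a lysosomal protein of macrophages, was 8.58, 8.61 and 8.62 in Control TA, 7.47, 7.33 and 7.20 in Dysf TA, 7.09, 7.0 and 6.91 in Control QF and 7.22, 7.22 and 7.04 in Dysf QF. Control TA alone was high, the interaction was -1.43 ± 0.27 and the adjusted p was 0.125, and 0.0328 with the block. The 28 measured macrophage and monocyte markers had a median of -0.01, and their summed intensity was 4649 to 5387 over both Control groups and 5914 to 6710 over both Dysf groups.

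Mybph, a myosin-binding protein of fast fibres, was the gene of this set that was low in Dysf TA. It was 10.46, 10.15 and 10.29 there and 11.06 to 11.60 on the other 9 arrays, with an interaction of -0.98 ± 0.18 (adjusted p = 0.125, and 0.0066 with the block). Anp32a, a nuclear phosphatase inhibitor, was 7.72, 7.35 and 7.30 in Control TA and at the floor on all Dysf TA arrays and on 2 of 3 arrays in each QF group. It was thus at least 7.63-fold lower in Dysf TA, but its second probe set gave an interaction of 0.18. The secreted phospholipase gene Pla2g12a (-0.88), the cell cycle regulator Rgcc (-0.94) and the tenascin gene Tnxb (-0.89) complete the named negative genes. Their block-adjusted p-values were 0.0359, 0.0286 and 0.0342. Without the block the adjusted p was 0.368 for Pla2g12a and 0.613 for Rgcc, and the unadjusted p of Tnxb was 0.0118 (limma). The Pla2g12a probe set is, by its name, also one shared within a sequence family.

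The positive calls were led by S100a9 and S100a8, whose products form calprotectin, an abundant protein of neutrophils. They were highest in Dysf TA, and Control QF came next, so the genotype difference had opposite signs in the 2 muscles. S100a9 was 7.32, 7.44 and 7.46 in Dysf TA, 7.02, 5.96 and 6.48 in Control QF, 4.53, 4.53 and 4.96 in Dysf QF and 4.53, 4.64 and 4.84 in Control TA. The Dysf TA arrays lay above all others, and the Control QF arrays above the remaining 6, of which 3 were at the floor. S100a9 rose in Dysf TA (6.67-fold with values at the floor, adjusted p = 0.00179) and fell in Dysf QF (3.53-fold, adjusted p = 0.028). Since 2 of 3 Dysf QF arrays and 1 of 3 Control TA arrays were at the floor, both folds may understate the difference. The interaction was 4.56 ± 0.46 (adjusted p = 0.00115).

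S100a8 was 8.24, 8.22 and 7.78 in Dysf TA, 7.77, 7.31 and 7.65 in Control QF, 6.33, 6.57 and 5.08 in Dysf QF and 6.14, 5.38 and 5.78 in Control TA. The lowest Dysf TA array was only just above the highest Control QF array. S100a8 rose 4.98-fold in Dysf TA (adjusted p = 0.0164) and gave -1.58 ± 0.38 in QF (adjusted p = 0.132), an interaction of 3.89 ± 0.54 (adjusted p = 0.0128).

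The antimicrobial granule gene Camp also had its highest mean in Dysf TA and its next highest in Control QF. It was 7.79, 7.73 and 8.32 in Dysf TA, 7.35, 7.73 and 7.29 in Control QF, 5.92, 6.79 and 5.88 in Dysf QF and 5.72, 6.61 and 7.07 in Control TA. Its interaction of 2.74 ± 0.53 had an adjusted p of 0.135, and 0.0167 with the block. The granule protein gene Ngp gave 2.28 ± 0.67 and the siderophore-binding Lcn2 1.92 ± 0.41 on the probe set listed by its p and -0.12 on the other, neither called with the block (adjusted p = 0.228 and 0.103).

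Of 20 measured granulocyte and mast cell markers 2 were called positive, 3 with the block and 0 negative, and the median was 0.48. Over all 7310 genes measured 2 were called positive, and 15 with the block. At an unadjusted p under 0.05 by limma 7 of the list were positive and 0 negative, against 3.05% of all probe sets either way. Genes are counted by any probe set here too. The granule enzyme genes Elane and Mpo gave 0.60 and 0.51, close to that median, and the receptor gene Csf3r was near 0. The summed intensity of the list, which includes the called S100a8 and S100a9, was 2385 to 2634 in Dysf TA and 1631 to 2182 in Control QF. It was 1429 to 1737 in Dysf QF and 1297 to 1573 in Control TA. Ctsg, Mmp8, Chil1 and Mcpt4 did not pass the filter on low values. Whether the number of granulocytes in the samples set the S100a8 and S100a9 values was not tested.

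Probe set 97519_at was 10.31, 10.33 and 10.36 in Dysf TA, 6.69, 7.02 and 7.32 in Control TA, 7.63, 7.78 and 8.15 in Control QF and 8.04, 7.91 and 8.35 in Dysf QF. Dysf TA was far above the other 9 arrays, by 10.0-fold over Control TA (adjusted p = 6.57e-06), while the genotype difference in QF was 0.25 ± 0.20. The interaction was 3.07 ± 0.29 (adjusted p = 0.00108). Probe set 100336_s_at, also without a named gene here, had the same group high and an interaction of 2.08 ± 0.42 (adjusted p = 0.207, and 0.00141 with the block).

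Bone and osteoclast markers had their highest summed intensity on the same arrays, 1681 to 1965 in Dysf TA against 731 to 1259 elsewhere. Ibsp, a sialoprotein of bone matrix, was 7.39, 7.79 and 7.29 in Dysf TA and between 4.53 and 5.95 on the other 9 arrays. Its interaction of 2.88 ± 0.63 had an adjusted p of 0.311, and 0.036 with the block, and its other probe set gave 0.18. The osteoclast genes Acp5 (1.49 ± 0.35) and Ctsk (1.41 ± 0.41) were not called either way. The protease gene Mmp9, shared by osteoclasts and neutrophils, was at the floor on all Control TA arrays and at least 8.67-fold higher in Dysf TA (adjusted p = 0.0201), and its interaction of 2.69 ± 0.76 was not called. Of 13 measured markers of this list 12 were above 0, with a median of 0.39. By limma 4 of the list were positive and 0 negative at an unadjusted p under 0.05, against 3.05% of all probe sets. The part that bone or marrow tissue in the samples had in these values was not tested.

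Alas2, which starts haem synthesis in red cell precursors, was called positive with the block alone (block-adjusted p = 0.0328). Without the block its interaction of 1.04 ± 0.33 had an unadjusted p of 0.00792 (limma) and was far from called. It rose 4.0-fold in Dysf TA (adjusted p = 0.00179) and gave 1.95-fold in QF (adjusted p = 0.133). Of 11 measured blood and erythroid markers it was the only call with the block, with which 0.31% of all probe sets were called. By limma 4 of the list were positive and 0 negative at an unadjusted p under 0.05, against 3.05% of all probe sets.

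**Figure D3:**
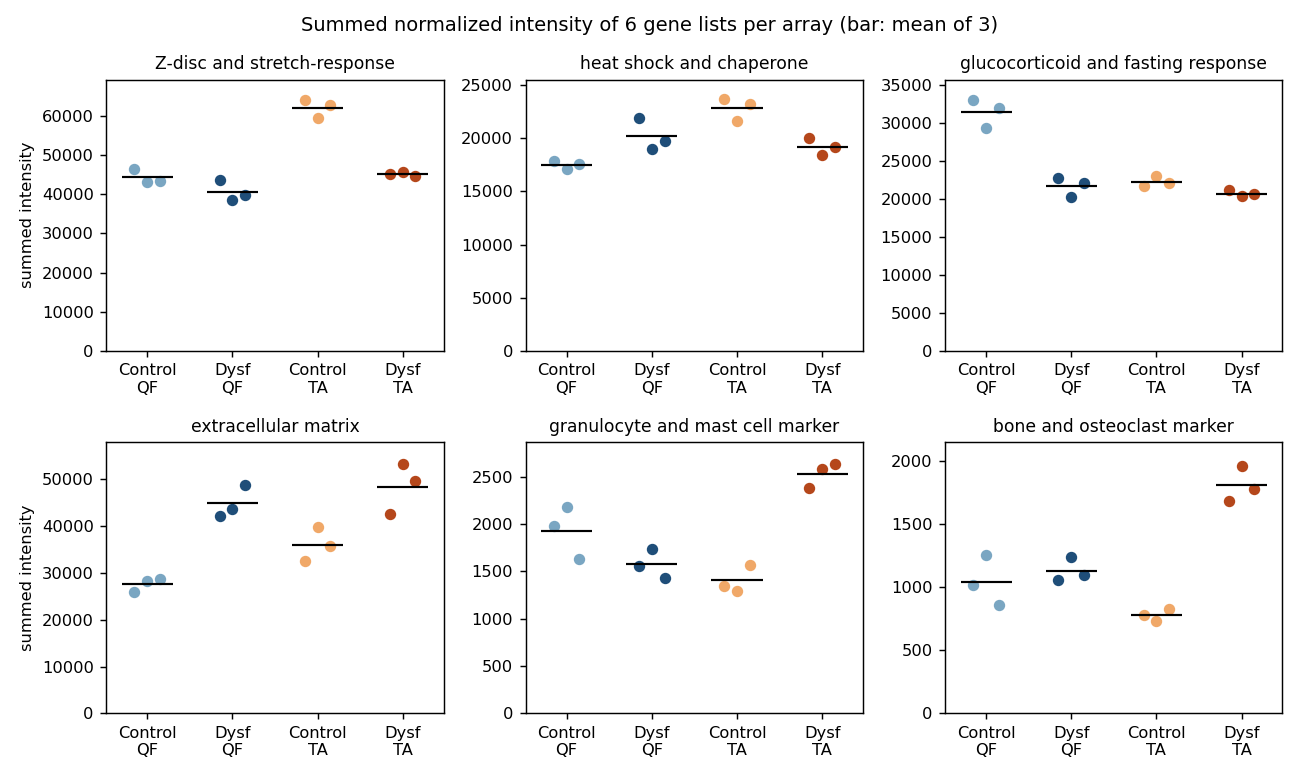
Summed normalized intensity (vertical axis, linear, from 0) of the measured members of 6 gene lists on each array, by group; points are arrays and bars the mean of 3. Sums are highest in Control TA for Z-disc genes and in Control QF for glucocorticoid and fasting genes. Those of granulocyte and bone markers are highest in Dysf TA, and that of matrix genes is lowest in Control QF. Called members are part of the sum of their list.

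Of the genes that glucocorticoids or fasting are known to raise, 0 were called without the block, and 7 of the 33 measured genes of the glucocorticoid and fasting list were called with it, all positive: Ddit4, Bnip3, Retreg1, Cebpd, Ctsl, Map1lc3b and Glul. Over all 7310 genes measured 15 were called positive with the block. At an unadjusted p under 0.05 by limma 11 of the 33 were positive and 0 negative, against 3.05% of all probe sets either way. The 11 count a gene when any of its probe sets passed, so the units of the comparison differ. The list's median was 0.23 with 21 of 33 above 0. Its summed intensity was 29453 to 33093 on the Control QF arrays and 20239 to 23014 on the other 9.

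Retreg1, a receptor for autophagy of the endoplasmic reticulum, was 12.46, 12.32 and 12.21 in Control QF, 11.14, 10.61 and 10.78 in Dysf QF, 11.31, 11.43 and 11.34 in Control TA and 11.30, 10.78 and 11.08 in Dysf TA. Control QF stood above the other 9 arrays. It fell 2.8-fold in Dysf QF (adjusted p = 0.0019) and gave -0.31 ± 0.16 in TA, an interaction of 1.18 ± 0.22 (adjusted p = 0.125, and 0.0328 with the block).

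Bnip3, a mitophagy receptor, was 10.36, 10.78 and 10.61 in Control QF, 9.08, 9.17 and 9.78 in Dysf QF, 9.41, 9.61 and 9.42 in Control TA and 9.41, 9.62 and 9.38 in Dysf TA. Its 2 TA groups were alike to within 0.01 in the mean, and the whole interaction of 1.23 ± 0.26 (adjusted p = 0.24, and 0.0342 with the block) came from QF, where it fell 2.36-fold (adjusted p = 0.00961). Ctsl, a lysosomal protease induced in muscle wasting, was 11.01, 11.06 and 11.12 in Control QF, 10.43, 10.16 and 10.23 in Dysf QF, 9.93, 9.91 and 9.78 in Control TA and 9.83, 10.08 and 9.95 in Dysf TA. It fell 1.73-fold in Dysf QF (adjusted p = 0.0102), with an interaction of 0.87 ± 0.17 (adjusted p = 0.132, and 0.036 with the block).

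Ddit4, an inhibitor of mTORC1 signalling, was 9.35, 8.99 and 9.54 in Control QF, 8.36, 8.23 and 8.89 in Dysf QF, 7.63, 8.17 and 7.89 in Control TA and 8.66, 8.93 and 8.66 in Dysf TA. Here the Control TA arrays lay below all others, and the Control QF arrays also lay above all others. The genotype differences of -0.80 in QF and 0.85 in TA were opposite in sign, neither called. The interaction was 1.65 ± 0.31 (adjusted p = 0.125, and 0.0044 with the block).

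The transcription factor gene Cebpd gave 0.98 ± 0.22, the autophagosome gene Map1lc3b 1.14 ± 0.35 and the glutamine synthetase gene Glul 1.38 ± 0.34, all with Control QF above the other 9 arrays. The second probe sets of Map1lc3b and Glul gave 0.54 and 0.28 and were not called. Other well known glucocorticoid or fasting targets were not called: Fkbp5 had an interaction of 0.33 ± 0.31 although it fell 2.3-fold in Dysf QF (adjusted p = 0.0314), and Tsc22d3 gave -0.19, Per1 -0.16 and Pdk4 -0.23. The metallothionein gene Mt2 fell 3.54-fold in Dysf QF (adjusted p = 0.00439) and gave 1.61-fold lower in TA, with an interaction of 1.13 ± 0.31 (adjusted p = 0.749, and 0.055 with the block).

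Inmt, an indolethylamine methyltransferase outside the list, was 9.42, 9.22 and 9.60 in Control QF, 6.92, 5.93 and 5.80 in Dysf QF, 7.42, 7.80 and 8.41 in Control TA and 6.43, 6.74 and 7.76 in Dysf TA. It fell 9.17-fold in Dysf QF (adjusted p = 0.00439) and its interaction was 2.30 ± 0.55 (adjusted p = 0.368, and 0.0321 with the block). Gas5, a noncoding RNA that accumulates when growth stops, had 0.89 ± 0.20 on one probe set and 0.34 on the other, and Acads, of fatty acid oxidation, 0.85 ± 0.25 and -0.19.

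The brown fat gene Ucp1 was an exception among the negative values, since Dysf QF was the group apart. It was 7.45, 7.62 and 7.60 there, 6.21, 5.71 and 5.86 in Control QF and at the floor on all 6 TA arrays. It rose 3.1-fold in Dysf QF (adjusted p = 0.0181), and on this probe set the interaction of -1.63 ± 0.38 (adjusted p = 0.349, and 0.167 with the block) has only its QF side measured. The second probe set, low in all groups, gave -0.76 ± 0.73.

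**Figure D4:**
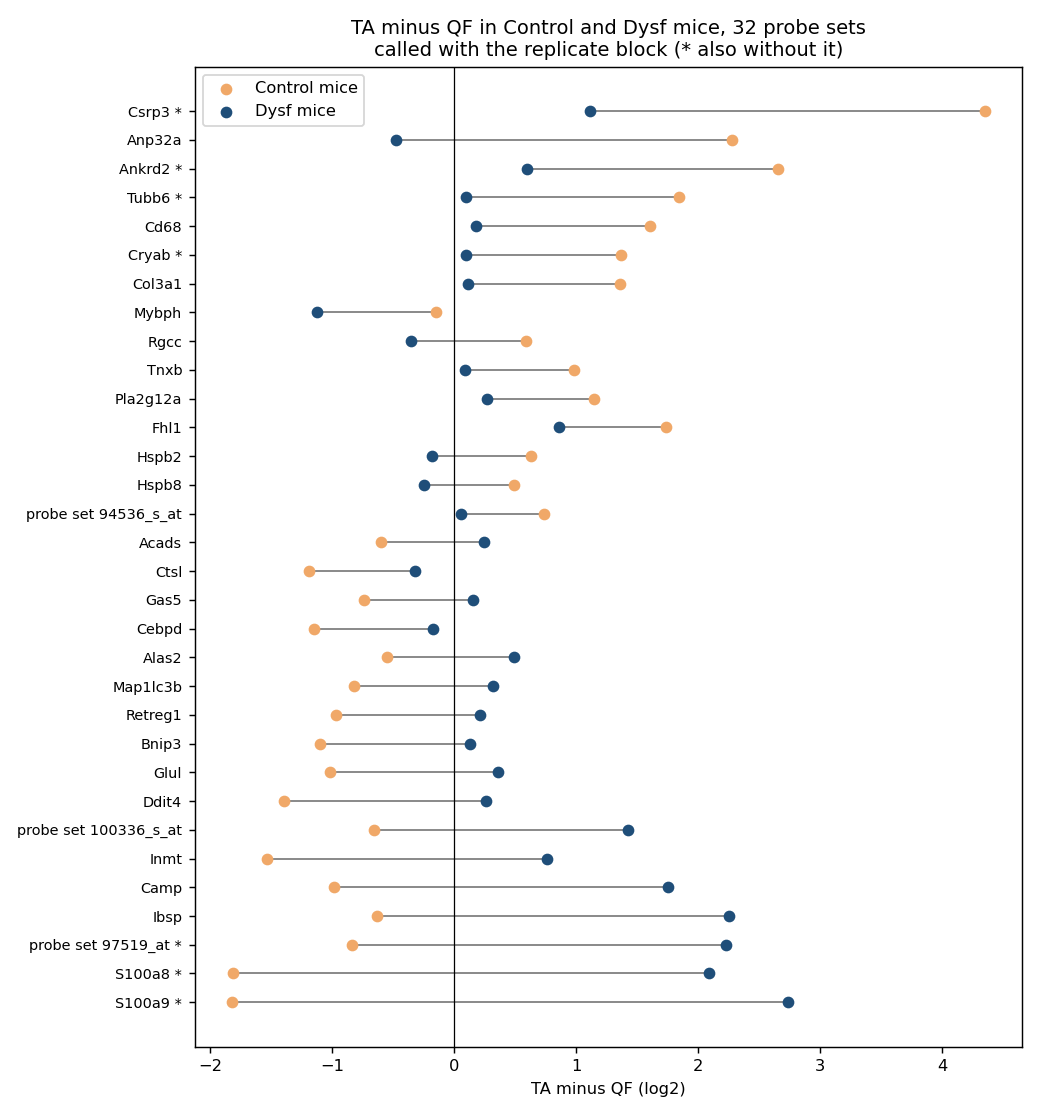
TA minus QF (horizontal axis, log2) in Control mice (orange) and in Dysf mice (blue) for the 32 probe sets called with the replicate block, an asterisk marking the 7 also called without it. For Csrp3, Ankrd2, Tubb6 and Cryab the Dysf point lies nearer 0, and for S100a9, S100a8 and probe set 97519_at it lies on the other side of 0.

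Set out by muscle, the 4 negative calls were all differences in which TA was higher in Control mice and which were smaller in Dysf mice, where 0 of the 4 were called (0.09 for Tubb6 and for Cryab). The 3 positive calls all turned in sign. Among the 32 probe sets called with the block 12 narrowed, 1 widened and 19 turned, and over all 10331 tested 3819, 2994 and 3518 did. The group apart is the one whose mean lay farthest from the mean of the other group means. With its 3 arrays beyond the other 9, it was Control TA for 3 of 4 negative calls and Dysf TA for the 3 positive calls. For Tubb6 it was Control QF, low, although the Control TA arrays also lay above the other 9. Among the calls with the block the group apart was Control TA, high, for 11 of 15 negative probe sets. Of 17 positive ones it was Control QF, high, for 8 and Dysf TA, high, for 6. Over all tested probe sets these groups were apart in that way for 1.35%, 0.9% and 0.658%. The sign of an interaction fixes in part which group can be apart, so these counts describe the calls and test nothing.

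**Figure D5:**
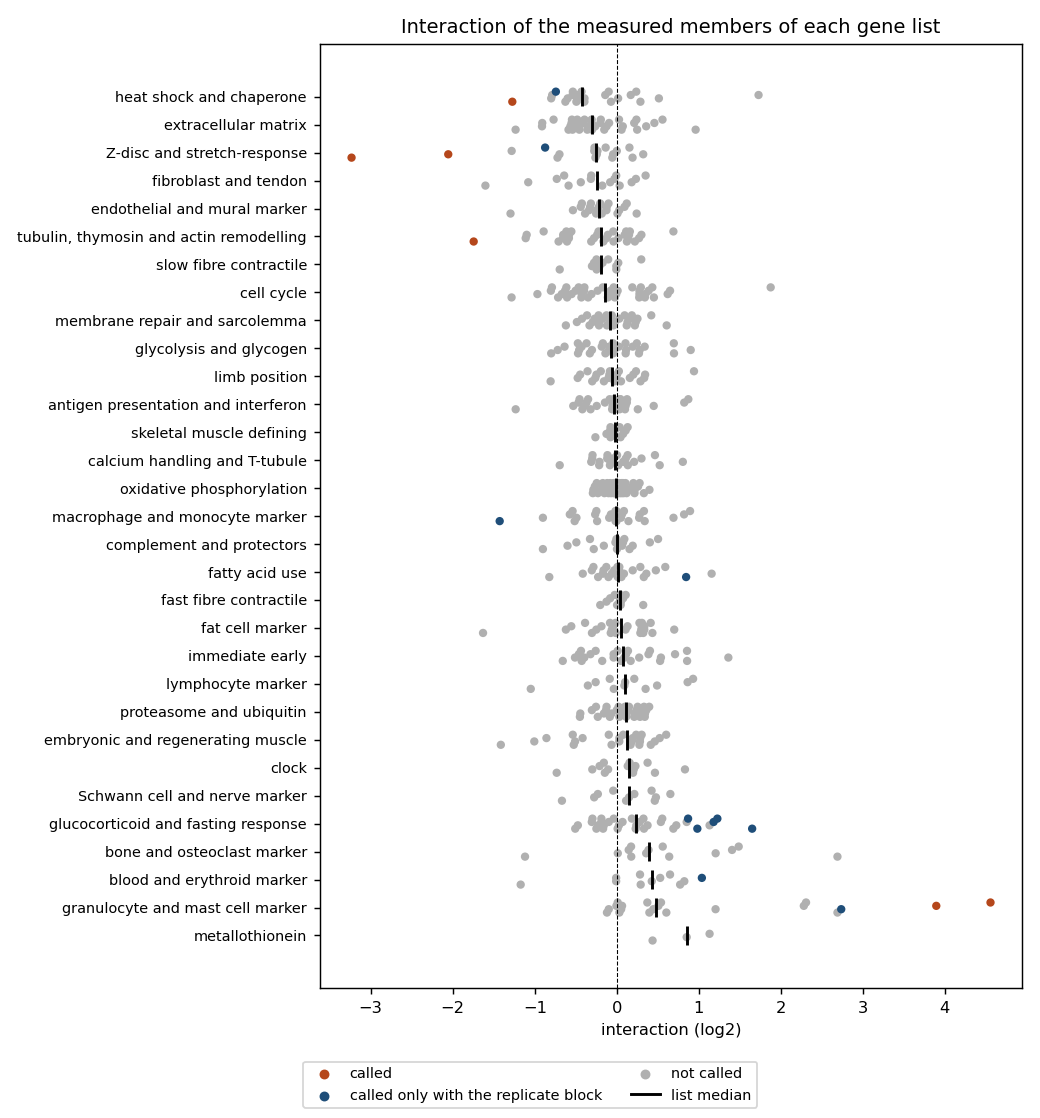
Interaction (horizontal axis, log2) of the measured members of 31 gene lists, 1 point per gene (its probe set with the highest mean), ordered by the list median (black bar); orange points are called, blue points are called with the replicate block alone and grey points are not called. The medians run from -0.43 for heat shock and chaperone genes to 0.85 for the 3 metallothionein genes.

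Other lists held no call without the block, and with it 1 of the fatty acid use list was called (Acads). The low share of calls over all probe sets (0.0678%, and 0.31% with the block) leads one to find few in lists of this size. Nothing is therefore read from these counts. Of 58 oxidative phosphorylation genes 0 were called with or without the block, and their median was -0.02 within a range of -0.29 to 0.40. The same held for 0 of 29 membrane repair and sarcolemma genes (median -0.08), 0 of 22 calcium handling and T-tubule genes (-0.02), 0 of 16 complement genes and their protectors (near 0) and 0 of 32 antigen presentation and interferon genes (-0.03). At an unadjusted p under 0.05 by limma 1 gene of the membrane repair list passed, the membrane-binding annexin Anxa1 (-0.87 ± 0.33, with 0.14 and -0.04 on its other probe sets). In the antigen presentation list 1 passed, the immunoproteasome subunit gene Psmb9 (-1.23 ± 0.52), and 0 did in the oxidative phosphorylation, calcium handling and complement lists. These lists, like the others, were chosen with earlier results of these data known. The median SE of an interaction was 0.457 over all probe sets, which is not a limit of detection. Differences well above it also went uncalled, such as Mmp9 at 2.69 ± 0.76, so a missing call does not show equal differences in both muscles.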

How the data were processed

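The authors deposited 1 table of linear intensities for 12422 probe sets and 66 array controls on 12 single-channel arrays of total RNA. The deposited intensities had a trimmed mean (lowest and highest 2% left out) of 200.1 to 200.2 on every array, which shows a scaling of each array to one level. The authors' software, background correction and probe summary are, in the sources used here, not given.

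Here the controls were left out and the arrays quantile normalized. Values under the 25th percentile (23.025, or 4.53 on the log2 scale) were raised to it before log2 was taken, and the 10331 probe sets above it on at least 3 arrays were kept. A group wholly at the floor gives a bound, written "at least". A model of 4 group means was fitted to the 12 arrays using limma 3.58.1 and R 4.3.3 (8 residual degrees of freedom, intensity trend, two-sided) with Benjamini-Hochberg adjustment over the 10331 probe sets and a threshold of 0.05. The fit was tested on simulated data, with independent normal noise on each array and large interactions added. Those data lack the shared deviations of same-numbered arrays. They show that the model recovers known interactions and do not give its error rate on these arrays. With 3 arrays a group the median SE of an interaction was 0.457, and 0.317 with the block. The 24 alternatives covered scaling, floor, filter, variance model, blocks and arrays left out.

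Of the 12422 probe sets 10833 had 1 gene symbol in the platform annotation, 396 several and 1193 none, and the last 2 kinds were not named. List counts take any probe set of a gene, medians and sums the one with the highest mean. Genes with several probe sets thus have more ways to be counted than the shares of all probe sets allow for.

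Deviations from the group mean correlated between same-numbered arrays of the 2 genotypes by 0.39, 0.71 and 0.66 in QF. In TA the values were 0.18, 0.11 and 0.23. Between muscles of a genotype they were -0.14 to 0.12, a range that holds the lowest TA value. The pairing is thus plain in QF and weak in TA. The pairing within a muscle thus comes from the data and not the labels. That block leaves 4 residual degrees of freedom.

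The comparison, the gene lists and the motifs were chosen with earlier results of these data known. Named genes were all called ones with 1 symbol, filled to 10 each way by the smallest p, and up to 3 members of each list by the smallest p. The genes called with the block alone, and Xirp1, Ankrd1, Tcap, Actn3, Hspa1b, Dnajb5, Ngp, Elane, Mpo, Csf3r, Ctsk, Fkbp5, Tsc22d3, Per1 and Pdk4 where the rule does not hold them, were named after their values were seen. Figures used Python 3.11.15 and matplotlib 3.10.9.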

Additional observations from a re-analysis of the deposited data

Results flagged for a closer look

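The 7 called interactions are effects that differ between the muscles by a direct test of the difference (limma, adjusted over 10331 probe sets). Csrp3 had -3.23 (adjusted p = 0.00142), Ankrd2 -2.05 (0.00156), Tubb6 -1.75 (0.0119) and Cryab -1.27 (0.0339). S100a9 had 4.56 (0.00115), S100a8 3.89 (0.0128) and the unnamed probe set 97519_at 3.07 (0.00108).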

How the results depend on the processing

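Csrp3, Ankrd2, S100a9 and probe set 97519_at were called under all 24 alternatives, Tubb6 under 19, S100a8 under 17 and Cryab under 7, and none of the 7 changed sign. Their interactions ranged from -3.46 to -2.93, -2.20 to -1.92, 3.74 to 4.97, 2.91 to 3.22, -1.85 to -1.57, 3.37 to 4.32 and -1.44 to -1.14, in that order. The count of 7 calls (4 negative, 3 positive) was 32 (15 and 17) with the replicate block within each muscle and 8 with a block over all 4 groups. It was 12, 7 of them positive, with the block within muscle and without the QF arrays numbered 2, an alternative chosen after seeing the data. Leaving out each array in turn gave 4 to 8 calls, 2 to 5 positive and 2 to 4 negative. The count was 4 without Control TA 3 or Dysf TA 2, and 5 were positive without Dysf QF 3. Negative calls were 2 with arrays set to a common median and 2 without the intensity trend. The cause of these moves was not tested, except that the block changes only the error. The group apart was the same for 7 of the 7 calls on the deposited scaling and 6 on a common median, and for 29 and 23 of the 32 calls with the block. Of 2139 comparisons with an alternative 1994 were the same, 76 lost a call, 57 gained one, 12 counts moved and 0 reversed. Most concerned probe sets picked for an unadjusted interaction p under 0.05 (limma), on nearly the same arrays. Few signs could therefore turn, and the 0 is no separate support.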
